A study of Mus musculus with 44 samples.

Results

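Hmgcs1, Mvd, Idi1, Fdps, Fdft1, Sqle, Lss and Dhcr7 encode enzymes of cholesterol synthesis, and their RNA was followed here through the 12 tissues of a mouse lineage-tracing study. The 8 genes were selected by name among the 32287 gene identifiers of the expression tables, of which 21704 were protein-coding. All 8 were above 1 TPM (transcript abundance scaled to transcript length and to the library total) in all 44 libraries, so none was lost to the filter on low values. Genes for cholesterol uptake were not among the 8 and are given as a separate list.

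Every embryo was an aggregate of an mCherry+ morula (CD1/G4) with GFP+ mESCs (G4), so that embryonic cells carried GFP and extraembryonic cells carried mCherry. The study's methods name the parental mESC line F1G4 and state that the mCherry+ colony was kept by mating its males to C57BL/6J females. At E6.5 the groups were epiblast (Epi) and distal (exEndo1) and proximal (exEndo2) extraembryonic endoderm, each with 4 WT libraries from tissue dissected out of single embryos. At E9.5 the groups were midgut and hindgut endoderm of embryonic (emMidgut, emHindgut) and extraembryonic (exMidgut, exHindgut) origin and yolk sac endoderm (YsEndo), each with 4 WT libraries of sorted EPCAM+ cells pooled from 4 embryos each. The emGut sort took GFP+ cells with low mCherry signal, that is embryonic cells that had taken up remnants of mCherry+ cells. In the E9.5 gut, origin and this uptake of remnants therefore cannot be told apart. At E13.5 the groups were colon and small intestine (SI) endoderm, with 3 libraries each, from WT GFP+ cells (emColon, emSI) and from Trp53 KO mCherry+ cells (exColon, exSI). The GFP+ cells came from a cultured mESC line and the mCherry+ cells from host morulae, so lineage of origin and cell source cannot be told apart. By the study's methods the GFP+ cells are male, while the mCherry+ cells can be of either sex, so sex is also unbalanced between origins. At E13.5 origin and Trp53 genotype cannot be told apart either. P-values measure the spread between these embryos or pools.

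Cholesterol is built in the cytosol and endoplasmic reticulum from acetyl-CoA through the mevalonate pathway, which also feeds ubiquinone, dolichol and protein prenylation. Most genes of the route are activated together by SREBP2, the transcription factor encoded by Srebf2, when sterols in the endoplasmic reticulum are low, and INSIG proteins hold SREBP2 back when sterols are high. Embryonic cells depend on their own synthesis and on sterol delivered as lipoprotein, and visceral and yolk sac endoderm take up maternal lipoprotein and secrete lipoprotein of their own. The membrane cholesterol made this way is also needed for Hedgehog signalling, in which a cholesterol group is attached to the ligand.

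The members follow the order of the pathway. Hmgcs1 (mm10 chr13:119690379-119708260, plus strand) encodes the cytosolic HMG-CoA synthase, which makes the substrate of the rate-limiting reductase. Mvd (chr8:122433601-122443422, minus strand) encodes mevalonate diphosphate decarboxylase, which yields isopentenyl diphosphate, and Idi1 (chr13:8885501-8892451, plus strand) encodes the isomerase that acts on it. Idi1 has a close paralogue, Idi2, on the same chromosome, so its reads may have been shared. Fdps (chr3:89093588-89101959, minus strand) encodes farnesyl diphosphate synthase, at the branch to prenylation. Fdft1 (chr14:63145150-63179578, minus strand) encodes squalene synthase, the first step committed to sterols. Sqle (chr15:59315077-59331192, plus strand) encodes squalene epoxidase and Lss (chr10:76531588-76557138, plus strand) encodes lanosterol synthase, which closes the sterol rings. Dhcr7 (chr7:143823145-143848410, plus strand) encodes the reductase of the last step to cholesterol.

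The promoters of Hmgcs1 and Mvd are shown because theirs were the only member windows without annotated exon bases. Whether promoter sequence bears on the RNA levels was not tested. Each sequence runs 5′ to 3′ over the 250 bases before the annotated start, taken from RefSeq on GRCm38.p6. Capitals mark TCACNCCA, the core letters of a sterol regulatory element, and CCAAT, each searched on both strands. The first lies at chr13:119690101-119690350 on the plus strand and the second at chr8:122443423-122443672 on the minus strand.
Hmgcs1: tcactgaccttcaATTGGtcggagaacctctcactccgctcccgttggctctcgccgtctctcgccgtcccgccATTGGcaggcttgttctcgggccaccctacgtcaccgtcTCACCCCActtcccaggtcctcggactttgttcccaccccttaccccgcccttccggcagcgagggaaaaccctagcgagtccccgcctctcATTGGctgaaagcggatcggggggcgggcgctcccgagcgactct
Mvd: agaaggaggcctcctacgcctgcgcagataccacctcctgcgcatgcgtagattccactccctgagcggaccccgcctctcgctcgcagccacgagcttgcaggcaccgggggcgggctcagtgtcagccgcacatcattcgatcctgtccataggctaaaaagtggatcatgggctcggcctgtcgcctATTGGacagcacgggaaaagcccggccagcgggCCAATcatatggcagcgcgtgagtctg

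The Hmgcs1 window held TCACCCCA starting 137 bases before the start and CCAAT at 3 places, 237, 176 and 45 bases before it. The Mvd window held no TCACNCCA and CCAAT at 2 places, 60 and 27 bases before the start. Among 32851 RefSeq windows of the same length, 3.67% held TCACNCCA and 33.8% held CCAAT. The table had entries for 5 of the 8 members. CCAAT was also found for Idi1 (45 and 14 bases before the start) and Lss (62 bases). Dhcr7 had 3 annotated starts, and CCAAT was found before 1 of them, 85 and 49 bases upstream. TCACNCCA was found in no member window other than that of Hmgcs1. Fdps, Fdft1 and Sqle had no entry.

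Sequencing depth, read from the ratio of coverage to FPKM, ranged from 3.528 to 12.04 gigabases of aligned sequence per library, with a median of 6.796. The reporters followed the labels. mCherry RNA was at most 6.61 TPM in Epi and all emGut and E13.5 embryonic libraries and at least 1731 TPM in all extraembryonic libraries. EGFP RNA was at least 180 TPM in the former and at most 15.9 TPM in the latter. Precision differed between members: the lowest read coverage in any library was 74.6 for Fdps and 76.5 for Hmgcs1, but 7.3 for Lss and 4.7 for Dhcr7.

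Levels of the 8 genes, which TPM makes comparable between genes, spanned a wide range. Fdps was the most abundant and made up on average 43.2% of the summed TPM of the 8, followed by Hmgcs1 with 18.1%, whereas Lss made up 2.24%. Summed over the 8, the level was lowest in exEndo1 (179 ± 7.44 TPM, SD, n = 4) and exEndo2 (203 ± 26.5, n = 4), followed by YsEndo (320.1 ± 19.9, n = 4) and exMidgut (394 ± 55.4, n = 4). Intermediate sums were found in exHindgut (585 ± 105), Epi (601 ± 97.7) and emMidgut (727 ± 104), each with n = 4. The sum was higher in emHindgut (1112 ± 106, n = 4) and in the E13.5 groups, with 1103 ± 39.5 in exSI, 1305 ± 195 in exColon, 1331 ± 206 in emColon and 1590.2 ± 101 in emSI (each n = 3). In bulk RNA, fewer cells with high expression and less RNA per cell cannot be told apart.

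**Figure D1:**
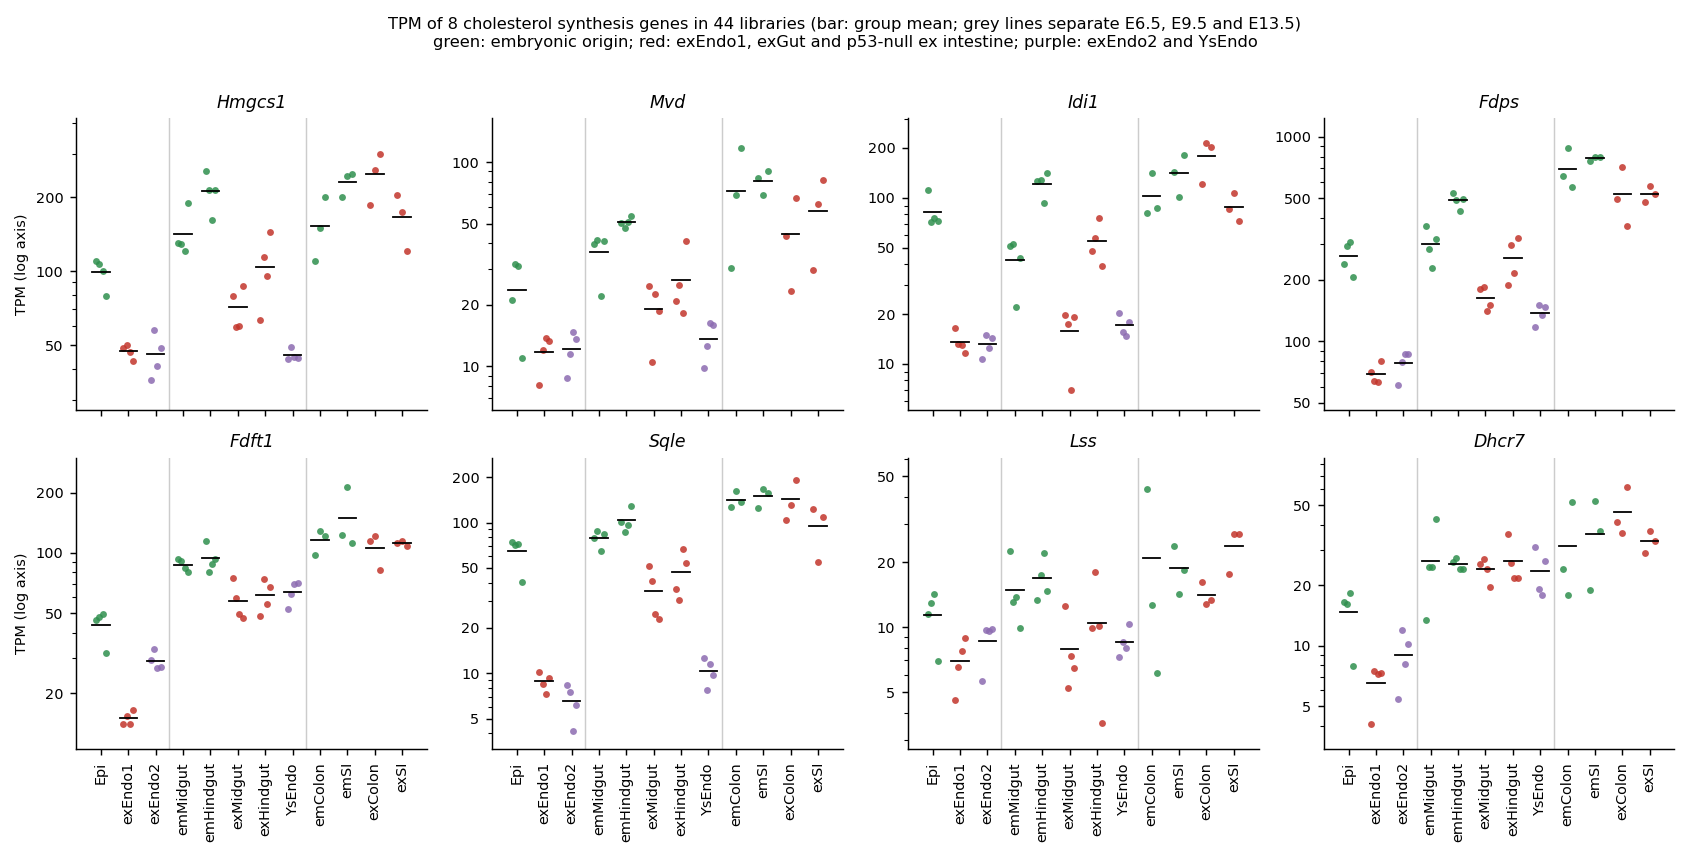
TPM of each of the 8 genes (log axis) in every library of the 12 groups, 1 point per library, with the group mean as a bar. Colours give embryonic or extraembryonic origin. The extraembryonic E6.5 groups and YsEndo lie at or near the bottom for Hmgcs1, Idi1, Fdps and Sqle, and the E13.5 groups at or near the top.

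The genes differed in how far their levels ranged. The highest group mean exceeded the lowest 22.7-fold for Sqle, 13.7-fold for Idi1, 11.3-fold for Fdps and 9.97-fold for Fdft1, against 7.11-fold for Dhcr7, 6.85-fold for Mvd, 5.43-fold for Hmgcs1 and 3.43-fold for Lss. Sqle therefore changed its weight within the pathway: it made up 10.6% of the summed TPM in Epi and 10.9% in emMidgut but 3.32% in exEndo2 and 3.29% in YsEndo. Ordered by group mean, most neighbouring groups overlapped. For Sqle the 3 lowest groups (YsEndo, exEndo1, exEndo2) were separated from all others, for Hmgcs1 the same 3 were, and for Idi1 these 3 together with exMidgut were. Fdps fell into 4 blocks without overlap: the E13.5 groups and emHindgut, then emMidgut, Epi and exHindgut, then exMidgut and YsEndo, then exEndo2 and exEndo1. For Fdft1 the break lay between emMidgut and YsEndo, and exEndo1 stood below all other groups. No neighbouring groups were separated for Mvd, Lss or Dhcr7.

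At E6.5, 6 of the 8 members were lower in exEndo1 and 4 of 8 in exEndo2 than in epiblast, with the lowest values at Sqle and Idi1. Sqle was 74.1, 71.2, 72.6 and 40.1 TPM in the 4 Epi libraries, 10.3, 8.56, 7.26 and 9.37 in exEndo1, and 8.34, 7.51, 4.18 and 6.17 in exEndo2. Idi1 was 112, 71.2, 75.6 and 72.5 TPM in Epi, 16.5, 13.1, 13 and 11.7 in exEndo1, and 10.7, 14.9, 12.5 and 14.4 in exEndo2. For both genes every epiblast library lay several times above every endoderm library. Against Epi, Sqle differed in exEndo1 by -2.70 on the scale of log2(TPM + 1) (SE 0.22, adjusted p = 9.05e-08, limma over all genes tested, as throughout) and in exEndo2 by -3.11 (SE 0.22, adjusted p = 1.72e-08). Idi1 differed by -2.51 (SE 0.17, adjusted p = 1.1e-08) and -2.55 (SE 0.17, adjusted p = 7.65e-09), respectively.

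Fdps and Hmgcs1 fell in both endoderm groups as well, by smaller amounts. Fdps was 238, 292, 307 and 207 TPM in Epi, against 62.9 to 79.8 in exEndo1 and 61.2 to 87.1 in exEndo2, a difference of -1.88 (SE 0.15, adjusted p = 5.71e-08) and -1.72 (SE 0.15, adjusted p = 1.38e-07). Hmgcs1 was 109, 107, 99.8 and 79.1 TPM in Epi, against 43.3 to 49.9 in exEndo1 and 36.2 to 57.6 in exEndo2, a difference of -1.04 (SE 0.15, adjusted p = 2.42e-05) and -1.10 (SE 0.15, adjusted p = 1.25e-05). Neither gene's endoderm range reached the epiblast range.

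Fdft1 and Dhcr7 passed in the distal but not in the proximal endoderm. Fdft1, the squalene synthase gene, was 46.5, 48.0, 49.4 and 31.6 TPM in Epi, 14.0, 15.4, 14.0 and 16.4 in exEndo1, and 29.1, 33.0, 26.6 and 27.1 in exEndo2. It was low in all exEndo1 libraries, while the highest exEndo2 library overlapped the lowest Epi library. The difference from Epi was -1.47 in exEndo1 (SE 0.15, adjusted p = 8.73e-07), which passed, and -0.57 in exEndo2 (adjusted p = 0.00424), which did not reach the required size of 1. Tested directly, exEndo1 differed from exEndo2 by -0.91 (SE 0.15, adjusted p = 0.00101), also under that size, and the 2 endoderm ranges did not overlap. Dhcr7 fell in exEndo1 (-1.03, SE 0.28, adjusted p = 0.00439), and in exEndo2 the value was -0.65 (adjusted p = 0.0502).

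A gene was called changed where the adjusted p was below 0.05 and the log2 difference exceeded 1. By that rule 6 of the 8 members were lower in exEndo1 than in Epi, where 33.1% of all genes tested were called and 13.2% were called lower. In exEndo2 against Epi 4 of 8 were lower, where 35.3% of all genes were called and 15.1% were called lower. Both comparisons share the Epi libraries. Mvd (-0.87 and -0.83, adjusted p = 0.0156 and 0.0193) and Lss (-0.63 and -0.35, adjusted p = 0.0339 and 0.222) did not pass in either, although both were negative. The median difference of the members was -1.26 in exEndo1 and -0.96 in exEndo2, against 0.11 and 0.07 over all genes tested. Between exEndo1 and exEndo2 limma called 0 of 8 (6.32% of all genes), with 1 at an unadjusted p under 0.05.

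The call for Hmgcs1 and that for Dhcr7 in exEndo1 sit close to the size of 1 and were lost when some single libraries were left out: Epi replicates 1 or 2 or exEndo1 replicate 4 for Hmgcs1, and Epi replicates 1, 2 or 3 or exEndo1 replicate 1 for Dhcr7. Epi replicate 4 was the lowest of its group for 7 of the 8 members. Without it Mvd also passed, at -1.18 in exEndo1 and -1.14 in exEndo2. In exEndo2 Hmgcs1 lost its call without exEndo2 replicate 1.

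At E9.5, Sqle and Hmgcs1 were lower in exGut than in emGut, and the other 6 members were not called. The comparison sets cells of both lineages from the same epithelium side by side. Origin and the uptake of remnants by the sorted emGut cells cannot be told apart in it. Sqle was 79.6, 87.7, 65.2 and 83.9 TPM in emMidgut and 51.1, 40.7, 24.9 and 23.1 in exMidgut. In the hindgut it was 101, 86.8, 96.95 and 128 TPM in emHindgut and 36.3, 30.5, 67.1 and 53.6 in exHindgut. In both regions every embryonic library was above every extraembryonic library. Over both regions the difference was -1.20 (SE 0.20, adjusted p = 0.00115).

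Hmgcs1 behaved alike. It was 130.3, 128, 120.1 and 189 TPM in emMidgut against 78.8, 59.1, 59.8 and 87.1 in exMidgut, and 255, 214, 162 and 213 in emHindgut against 63.3, 114, 95.9 and 144 in exHindgut. The ranges did not overlap within either region. The difference over both regions was -1.02 (SE 0.20, adjusted p = 0.00441).

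Idi1, which also differed strongly between regions, was 51.4, 53.04, 22.0 and 43.6 TPM in emMidgut and 19.7, 17.5, 7.0 and 19.2 in exMidgut. In the hindgut it was 127, 128, 92.9 and 141 TPM in emHindgut and 47.7, 57.5, 75.5 and 39.0 in exHindgut. All embryonic libraries exceeded all extraembryonic libraries of the same region, but exHindgut overlapped emMidgut. With midgut and hindgut taken as 1 group the difference was -1.28 (SE 0.45) and did not pass (adjusted p = 0.136). With region as a covariate the same difference passed (adjusted p = 0.000271).

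Fdps, Mvd and Fdft1 were also lower at adjusted p below 0.05 without reaching the size of 1: -0.91 for Fdps (SE 0.19, adjusted p = 0.0093), -0.95 for Mvd (SE 0.22, adjusted p = 0.0198) and -0.61 for Fdft1 (SE 0.12, adjusted p = 0.00465). Fdps was 229 to 367 TPM in emMidgut against 141 to 184 in exMidgut, and 435 to 531 in emHindgut against 189 to 320.1 in exHindgut, with no overlap in either region. Lss gave -0.81 (SE 0.27, adjusted p = 0.113). Dhcr7, the last step, gave -0.01 (SE 0.18, 95% interval -0.39 to 0.38, adjusted p = 0.994), with 13.48 to 42.7 TPM in emGut and 19.6 to 36.1 in exGut.

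Thus 2 of the 8 members were called lower and 0 higher in exGut, where 2.35% of all genes tested were called and 1.27% were called lower. All differences but that of Dhcr7 were -0.61 or lower. The median difference of the members was -0.93, against -0.03 over all genes. The count rested on single libraries: it was 1 when any of emHindgut replicates 1, 2 or 4, emMidgut replicate 4, exHindgut replicate 1 or exMidgut replicates 2 or 3 was left out, in each case because Hmgcs1 fell under the size of 1, and it was 4 without emMidgut replicate 3 or exHindgut replicate 4, when Mvd and Fdps also passed.

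The origin difference was of like size in midgut and hindgut. In the midgut 2 of 8 members passed (5.02% of all genes), Idi1 at -1.39 (SE 0.29, adjusted p = 0.00355) and Sqle at -1.22 (SE 0.25, adjusted p = 0.00288), and 4 passed without emMidgut replicate 3 or exMidgut replicate 1. In the hindgut 3 of 8 passed (3.47% of all genes), namely Hmgcs1 at -1.05 (SE 0.20, adjusted p = 0.00216), Idi1 at -1.16 (SE 0.29, adjusted p = 0.0169) and Sqle at -1.18 (SE 0.25, adjusted p = 0.00509). Tested directly, the hindgut difference minus the midgut difference lay between -0.11 (Fdps) and 0.23 (Idi1) for the 8 members, and the call count was 0 of 8 in limma (0.298% of all genes), with 0 at an unadjusted p under 0.05. The widest interval among the called members was that of Idi1, -0.61 to 1.07, so a moderate dependence on region was not detectable for it. In the hindgut Idi1 lost its call without emHindgut replicate 4 (adjusted p = 0.0588) or exHindgut replicate 4 (adjusted p = 0.0636), Hmgcs1 without emHindgut or exHindgut replicate 1, and Sqle without exHindgut replicate 2.

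**Figure D2:**
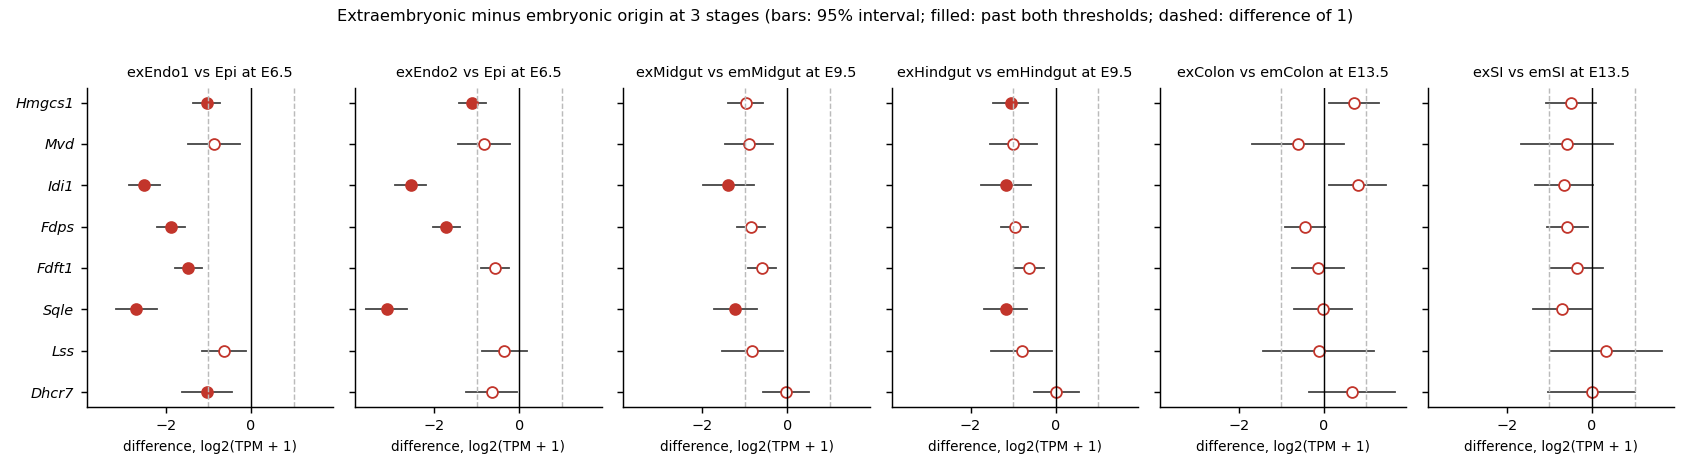
Extraembryonic minus embryonic difference of the 8 genes on the log2(TPM + 1) scale in 6 comparisons at E6.5, E9.5 and E13.5, as points with 95% intervals, filled where the gene was called. Values at E6.5 lie below 0 for all 8 genes, those of Sqle and Idi1 lie below -1 at E6.5 and E9.5, and no point is filled at E13.5.

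Along the gut, the hindgut carried more Idi1 RNA than the midgut in both lineages. From the values above, all hindgut libraries exceeded all midgut libraries of the same origin. The difference was 1.56 between emHindgut and emMidgut (SE 0.29, adjusted p = 0.000285) and 1.78 between exHindgut and exMidgut (SE 0.29, adjusted p = 6.63e-05). Idi1 was the 1 member of 8 called in each, where 14% and 13.6% of all genes were called. Fdps was higher by 0.72 (adjusted p = 0.00135) and 0.61 (adjusted p = 0.00545), without overlap and without reaching the size of 1. The other members lay between 0.05 and 0.57.

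Yolk sac endoderm, the other E9.5 descendant of extraembryonic endoderm, held less Sqle RNA than gut of either origin. Sqle was 12.6, 7.71, 11.6 and 9.77 TPM in YsEndo, below every gut library. It was higher by 1.81 in exGut (SE 0.21, adjusted p = 1.16e-07) and by 3.01 in emGut (SE 0.21, adjusted p = 2.02e-11). Hmgcs1 was 43.9, 49.2, 44.8 and 44.3 TPM in YsEndo, again below every gut library, and exceeded it by 0.87 in exGut (adjusted p = 0.000144, under the size of 1) and by 1.88 in emGut (SE 0.17, adjusted p = 1.88e-09).

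Against YsEndo, 1 of 8 members was called higher in exGut, where 41.9% of all genes were called and 31.9% were called higher. In emGut 5 of 8 were called higher, where 45.8% of all genes were called and 35.1% were called higher. The 5 were Hmgcs1, Sqle, Idi1 (1.98, SE 0.25, adjusted p = 2.74e-07), Mvd (1.58, SE 0.23, adjusted p = 2.7e-06) and Fdps (1.46, SE 0.13, adjusted p = 1.73e-09). Both comparisons share the YsEndo libraries. The median of the members was 0.59 in exGut and 1.52 in emGut, against 0.57 and 0.61 over all genes. Rescaling the libraries by the median ratio over genes lowered the medians over all genes by 0.38 and 0.405, to 0.19 and 0.21. It lowered those of the members to 0.096 and 1.02. After it Sqle kept its calls, the difference of Fdps between emGut and YsEndo fell to 0.95, and Fdft1 differed between exGut and YsEndo by -0.62 (adjusted p = 0.000458), against -0.11 as deposited.

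From E6.5 to E9.5, 5 of the 8 members rose in the extraembryonic gut lineage. Against exEndo1, exGut was higher at Sqle (2.01, SE 0.23, adjusted p = 2.1e-09), Fdft1 (1.91, SE 0.16, adjusted p = 6.87e-13), Dhcr7 (1.80, SE 0.28, adjusted p = 1.09e-06), Fdps (1.53, SE 0.15, adjusted p = 6.32e-11) and Idi1 (1.02, SE 0.23, adjusted p = 0.000479). Of all genes 28.7% were called and 17.8% were called higher. Hmgcs1 (0.82, adjusted p = 0.000284) and Mvd (0.83, adjusted p = 0.0257) missed only the size of 1, and Lss (0.26, adjusted p = 0.56) did not pass. Dhcr7 showed this in all libraries, from 4.06 to 7.51 TPM in exEndo1 to 19.6 to 36.1 in exGut. Idi1 fell under the size of 1, at 0.98, after rescaling, at 0.95 without replicate 2 of every group and at 0.97 without replicate 4.

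In the embryonic lineage 1 of 8 members was called from Epi to emGut (27.2% of all genes, 20.5% higher), Fdft1 at 1.04 (SE 0.16, adjusted p = 8.12e-07). Idi1 gave -0.22 (adjusted p = 0.498) and Hmgcs1 gave 0.79 (adjusted p = 0.000413). From exEndo2 to YsEndo 2 of 8 were called higher: Dhcr7 at 1.32 (SE 0.32, adjusted p = 0.00151) and Fdft1 at 1.11 (SE 0.18, adjusted p = 9.48e-06). Of all genes 19.7% were called there, 5.32% higher and 14.3% lower. Hmgcs1 gave 0.01 (95% interval -0.41 to 0.43) there and Lss 0.00 (95% interval -0.78 to 0.78). Fdft1 was thus called higher at E9.5 than at E6.5 in all 3 lineages, and Hmgcs1 in none. In the embryonic and extraembryonic gut lineages Hmgcs1 missed only the size of 1. In the embryonic lineage the call of Fdft1 was lost after rescaling (0.85) and without replicate 4 of every group (0.92), and Mvd was added without replicate 2 (1.06) or 3 (1.18). In the yolk sac lineage the call of Dhcr7 was lost without replicate 1 (0.99), and rescaling added Fdps (1.24) and Sqle (1.01).

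At E13.5 the first check is Trp53 itself. Trp53 RNA was 42.5, 124 and 122 TPM in exColon and 33.4, 167 and 117 in exSI, against 151 to 245 in the embryonic groups. Every exColon library lay below that embryonic range, while exSI reached into it at 167 TPM. The difference was -1.11 (SE 0.35) and did not pass (adjusted p = 0.194). The knockout was made with Cas9, and small deletions need not lower the RNA, so this neither checks nor refutes the genotype label.

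At E13.5 no member was called between extraembryonic and embryonic intestine. In limma the count was 0 of 8 over both organs (0.745% of all genes, 1 member at an unadjusted p under 0.05), 0 in the colon (0.617%, 2 members) and 0 in the small intestine (0.505%, 2 members). Sqle was 126, 161 and 136 TPM in emColon, 104, 129.8 and 193 in exColon, 124, 166 and 156 in emSI, and 122, 54.7 and 109 in exSI. The colon values were intermixed, while the exSI values lay below the emSI values. The difference over both organs was -0.37 (SE 0.23, 95% interval -0.85 to 0.12, adjusted p = 0.568). Fdps gave -0.50 (SE 0.16, 95% interval -0.84 to -0.17) at an adjusted p of 0.182.

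Hmgcs1 and Idi1 had values of opposite sign in the 2 organs. Hmgcs1 was 186, 258 and 298 TPM in exColon against 109.8, 149 and 199.9 in emColon, and 204, 175 and 120.3 in exSI against 199, 244 and 248 in emSI. Idi1 was 122, 215 and 202 TPM in exColon against 81.6, 141 and 87.2 in emColon, and 86.1, 106 and 72.9 in exSI against 144, 101 and 181 in emSI. Extraembryonic libraries tended to the high side in colon and to the low side in small intestine, with overlap in all 4 pairs. The colon difference minus that of the small intestine was 1.20 for Hmgcs1 (SE 0.39, adjusted p = 0.446) and 1.45 for Idi1 (SE 0.45, adjusted p = 0.434), so neither passed. That test called 0 of 8 members and 0.016% of all genes, with 2 members at an unadjusted p under 0.05. Between colon and small intestine limma called 0 of 8 members in the embryonic (0.729% of all genes, 1 member at an unadjusted p under 0.05) and 0 of 8 in the extraembryonic lineage (0.857%, 1 member). The ranges of exColon and exSI nevertheless did not overlap for Idi1 (0.99, 95% interval 0.31 to 1.66, adjusted p = 0.238) or for Lss, which was 12.8 to 16.1 TPM in exColon and 17.6 to 26.9 in exSI (-0.70, SE 0.61, adjusted p = 0.769). Spread was large at this stage, up to 43.6, 12.7 and 6.14 TPM for Lss in emColon.

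From E9.5 to E13.5, 6 of the 8 members rose in the extraembryonic lineage, in which the later cells are also Trp53 KO, where 18.9% of all genes were called and 4.45% were called higher. Idi1 rose most (2.09, SE 0.21, adjusted p = 2.49e-10), followed by Sqle (1.51, SE 0.20, adjusted p = 1.81e-07), Fdps (1.35, SE 0.13, adjusted p = 1.97e-10), Hmgcs1 (1.24, SE 0.16, adjusted p = 8.15e-08), Mvd (1.09, SE 0.27, adjusted p = 0.00157) and Lss (1.04, SE 0.29, adjusted p = 0.00506). Fdft1 gave 0.87 (adjusted p = 4.79e-06) and Dhcr7 0.62 (adjusted p = 0.0424). Without replicate 3 of every group Mvd was 0.74 (adjusted p = 0.0544), and without replicate 4 Lss was 0.82.

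In the embryonic lineage 0 of 8 were called, where 23.7% of all genes were called, 3.66% higher and 20% lower. Even so, 5 members were higher at an adjusted p under 0.05 and missed only the size of 1. They were Fdps, Idi1 (0.74), Mvd (0.74), Sqle (0.68) and Fdft1 (0.50). The highest value was that of Fdps, 0.95 (SE 0.13, adjusted p = 3.69e-07), with 566 to 878 TPM at E13.5 above 229 to 531 at E9.5. Fdps passed after rescaling (1.19), and Fdps (1.06) and Mvd (1.01) passed without replicate 1 of every group. Hmgcs1 gave 0.11 (95% interval -0.21 to 0.43). The median of the members was 0.59, against -0.41 over all genes, and 1.16 against -0.25 in the extraembryonic lineage.

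Whether the origin difference itself changed between the stages was tested directly, a comparison added after the values had been seen. The difference at E13.5 minus that at E9.5 was 1.34 for Idi1 (SE 0.29, adjusted p = 0.00513) and 1.12 for Hmgcs1 (SE 0.22, adjusted p = 0.00244), and these 2 of 8 members were called, where 3.85% of all genes were called and 2.76% in this direction. Sqle gave 0.83 (SE 0.29, adjusted p = 0.0897), Fdps 0.41 (adjusted p = 0.22) and Dhcr7 0.33 (SE 0.34, adjusted p = 0.66). All 8 values were positive, with a median of 0.62 against 0.13 over all genes. Without replicate 2 of every group Idi1 no longer passed (1.19, adjusted p = 0.0633), and without replicate 1 Lss was added (1.49, adjusted p = 0.0369). Over all genes the count fell from 566 to 221 without replicate 4 of every group. Stage, Trp53 genotype and the region sampled change together in this contrast and cannot be told apart. The embryonic sort changes with them, from GFP+ cells with low mCherry signal at E9.5 to GFP+ cells at E13.5. Embryos were pooled at E9.5 and not at E13.5.

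The other genes of the pathway were counted from lists drawn from general knowledge. Like the members, these lists were chosen with earlier results of these data known. Of all genes tested, 1.08% were called higher and 1.27% lower in exGut against emGut, 20% and 13.2% in exEndo1 against Epi, and 31.9% and 9.95% in exGut against YsEndo, and the counts below stand against these shares. Of 13 further synthesis enzymes, 2 were called lower and 0 higher in exGut against emGut, with a median of -0.71. Among them was Msmo1, which removes sterol methyl groups (-1.14, SE 0.24, adjusted p = 0.00792). Of the same 13, 2 were higher and 0 lower in exEndo1 against Epi, with a median of -0.18, a share of higher calls not above the 20% of all genes. Ebp, the sterol isomerase, was higher by 2.07 and Hsd17b7, a ketosteroid reductase of the route, by 1.28. In exGut against YsEndo 1 was higher (Cyp51, the lanosterol demethylase, 1.13) and 2 were lower (among them Hsd17b7, -1.15). For the change of the origin difference with stage, 5 of the 13 were called and all 5 were positive, among them Msmo1 (1.08, SE 0.22, adjusted p = 0.00328). In that contrast, added after the values had been seen, 3.85% of all genes were called and 2.76% in this direction.

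Of 10 regulators of the pathway, 0 were called in exGut against emGut in limma, with 3 at an unadjusted p under 0.05. Srebf2 gave -0.66 (adjusted p = 0.00709), under the size of 1, and Insig1, itself a target of SREBP2, gave -0.58 (adjusted p = 0.177). In exEndo1 against Epi 1 of 10 was higher (Mylip, which marks lipoprotein receptors for breakdown, 3.40) and 1 lower (Insig1, -1.33), while Srebf2 gave 0.48 (adjusted p = 0.0471). In exGut against YsEndo 3 of 10 were higher (Nr1h2, 1.37, Mbtps1, 1.21, and Insig1, 1.11) and 1 was lower (Nr1h3, -2.79), close to the shares of all genes. Nr1h2 and Nr1h3 encode the sterol-sensing liver X receptors.

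Of 11 uptake and transport genes, 6 were called higher and 2 lower in exEndo1 against Epi, with a median of 1.64. Higher calls also outnumbered lower ones over all genes there (20% against 13.2%). Stard4, a sterol carrier, was higher by 2.44, Lipa, the lysosomal lipase that frees cholesterol from its esters, by 2.23, and Scarb1, the receptor for high-density lipoprotein, by 1.90. In exGut against emGut 1 of 10 tested was called, Lrp8, a lipoprotein receptor, at -1.38 (SE 0.35, adjusted p = 0.0345). In exGut against YsEndo 3 of 10 were higher (among them Vldlr, 2.80) and 2 lower (Lrp2, -4.01, and Scarb1, -2.90). Lrp2 encodes the endocytic receptor megalin.

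Of the genes for efflux and esterification, 3 of 5 tested were higher and 1 lower in exEndo1 against Epi: Soat2, which esterifies cholesterol for lipoproteins, by 7.31, Soat1 by 1.89 and Abca1, an exporter, by 1.30, and the exporter gene Abcg1 at -2.79. In exGut against emGut 0 of 6 were called (1 at an unadjusted p under 0.05), and in exGut against YsEndo 1 was higher (Abcg1, 3.63) and 2 lower (Soat2, -6.45, and Abcg5, -1.07). In the non-sterol isoprenoid branch 0 of 8 were called in exEndo1 against Epi (5 at an unadjusted p under 0.05) and 0 of 8 in exGut against emGut (0 at an unadjusted p under 0.05). Its medians were 0.44 and 0.02. In exGut against YsEndo 1 was higher (Ggps1, 1.61) and 1 lower (Pdss1, -2.36).

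Fatty acid synthesis, which shares SREBP control, gave 0 higher and 4 lower of 10 in exEndo1 against Epi, with a median of -0.83. They were Fads2 (-4.09), Fads1 (-2.37), Elovl6 (-2.13) and Fasn (-1.90), which desaturate, elongate and build fatty acids. In exGut against emGut 0 of 10 were called, with 6 at an unadjusted p under 0.05 and a median of -0.54. In exGut against YsEndo 6 were higher, led by Fads2 (3.83) and Fads1 (3.62), and 1 was lower (Scd1, -3.49). At E13.5, ex against em intestine, no gene of any of these lists was called, where 0.745% of all genes were called.

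**Figure D3:**
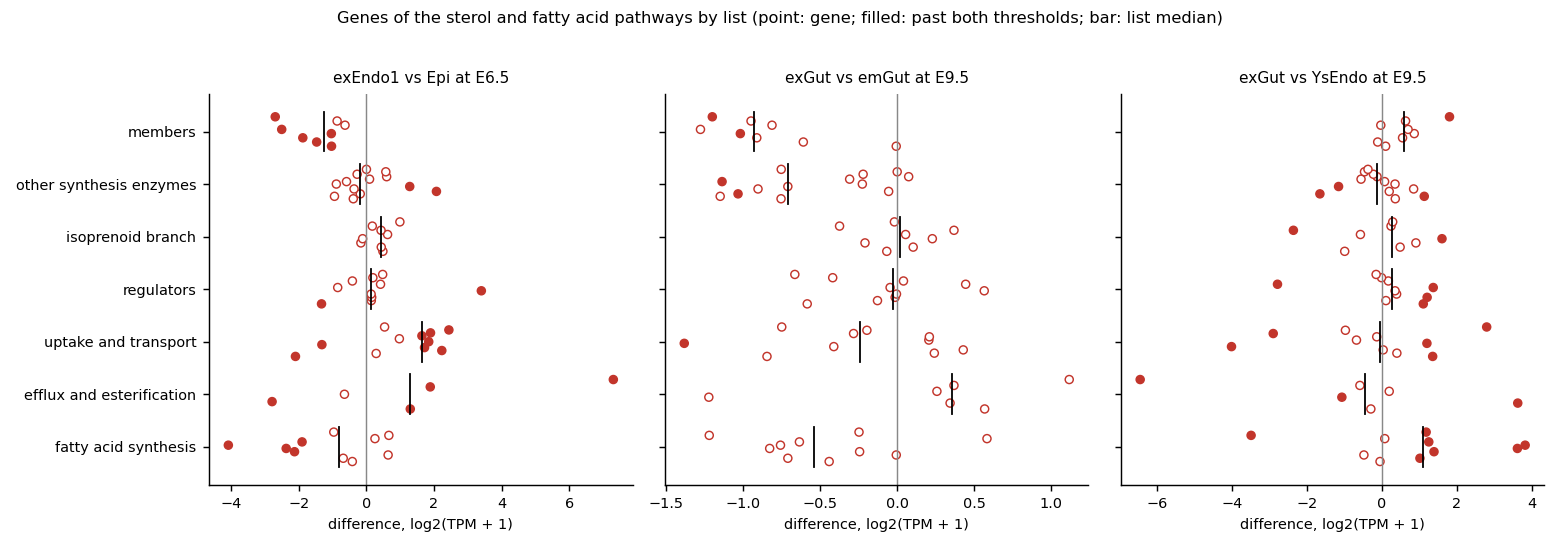
Log2 differences of the genes of each pathway list in exEndo1 against Epi, exGut against emGut and exGut against YsEndo, 1 point per gene, filled where called, with the list median as a bar. The 8 members and the other synthesis enzymes lie mostly below 0 in exGut against emGut, while the isoprenoid list lies around 0.

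The labelled tissues carried their markers. Epiblast markers summed to 2956 to 4426 TPM in Epi and at most 568 in exEndo1. Gut epithelial markers (Epcam, Cdh1, Foxa2, Cdx2 and Shh) summed to 717 to 1546 TPM in all E9.5 gut libraries. A list of 6 visceral and yolk sac endoderm genes (Afp, Apoa1, Apoa4, Rbp4, Amn and Cubn) moved with several of the comparisons. Its sum was 52684 to 63483 TPM in YsEndo, 6883 to 12307 in exEndo1, 3884 to 7661 in exEndo2 and 2.9 to 5.3 in Epi. In the midgut it was 6411 to 15805 TPM in exMidgut against 1282 to 2870 in emMidgut, and in the hindgut 107 to 479 in exHindgut against 26.7 to 66.8 in emHindgut. In both regions this sum was higher in every extraembryonic library than in every embryonic library. Gene by gene, 6 of 6 were called higher in the midgut (median 3.07), where 2.19% of all genes were. In the hindgut 1 of 6 was called higher and 1 was negative (median 0.49), where 1.63% of all genes were called higher. With both regions as 1 group 0 of 6 were called (2.35% of all genes). Mesenchymal markers summed to 1.75 to 384 TPM in emSI against 0 to 1.05 in exSI. In the colon they summed to 0.39 to 11.7 TPM in emColon against 0 to 5.40 in exColon. In the hindgut they summed to 18.3 to 39.4 TPM in emHindgut against 10.5 to 17.2 in exHindgut, with 1 of 4 tested called lower and a median of -1.30. In the midgut they were 4.86 to 12.5 TPM in emMidgut and 3.46 to 14.2 in exMidgut. Neural markers were 10.5 to 57.4 TPM in emMidgut against 0 to 3.95 in exMidgut, where the 1 of them that was tested was called lower (-3.86), and at most 1.38 TPM in the hindgut groups. Germ cell markers were 71.1 to 328 TPM in emMidgut and 56.4 to 103 in exMidgut. Their part in the results was not tested.

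**Figure D4:**
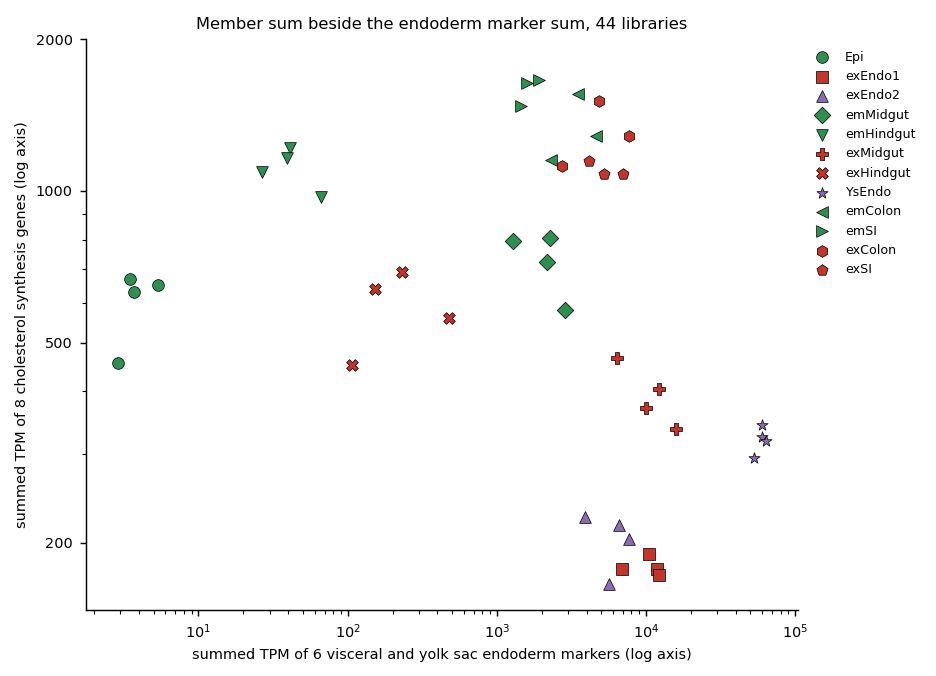
Summed TPM of the 8 genes against summed TPM of the 6 visceral and yolk sac endoderm markers (both log axes), 1 point per library. Libraries of exHindgut and emHindgut differ in both sums, and YsEndo stands alone at the highest marker level.

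The 8 genes tracked each other closely between tissues and loosely within them. Over the 12 group means of log2(TPM + 1) the 28 pairwise correlations ran from 0.67 (Lss with Dhcr7) to 0.97 (Mvd with Fdps), with a median of 0.88. Over the 44 libraries after each group's mean had been subtracted they ran from -0.39 (Hmgcs1 with Lss) to 0.57 (Fdps with Fdft1), with a median of 0.14 and 8 pairs below 0. These points share library, depth and scaling, and the values are descriptive. The median coefficient of variation within a group was lowest for Fdps (14.3%) and Fdft1 (14.8%) and highest for Mvd (29.4%).

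Among 8490 other genes with a mean of at least 10 TPM, those closest to the members' mean profile over the 12 group means included Cyp51 (r = 0.96) and Acat2 (r = 0.95), which encodes the thiolase at the head of the pathway, in the first 10. Also in the first 10 were Alkbh2, D8Ertd738e, Psmd4, Psmb4, Umps, Babam1 and Ranbp1, and the 99th percentile over all genes was 0.87. Insig1 followed at rank 21 (0.92), while Srebf2 was at rank 1530 (0.51). Within groups, over the 44 centred libraries, the first 10 were Tubb5 (0.71), H2afx, Arhgdia, Cdc20, Eef1g, Aurka, Cdca8, Fkbp4, Rassf7 and Isyna1 (0.60), with a 99th percentile of 0.48. There Srebf2 came at rank 44 (0.53) and Insig1 at rank 405 (0.34).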

How the data were processed

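RNA was measured in 44 low-input libraries by a Smart-seq2-based protocol. The authors ran cutadapt 4.1 for trimming, STAR 2.7.9a for alignment to mm10 with both reporter sequences added, and StringTie 2.0.6 for quantification on GENCODE annotation. The deposited tables, 1 per library, hold TPM, FPKM and coverage per gene, and no read counts. TPM rows were summed per gene identifier, and groups were taken from the labels. Depth was read from the coverage to FPKM ratio of single-transcript genes.

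Differences were tested with limma 3.58.1 (R 4.3.3) on log2(TPM + 1), with a mean-variance trend and Benjamini-Hochberg adjustment over all protein-coding genes that exceeded 1 TPM in 4 or more libraries of the fit (3 or more at E13.5), Y-linked genes excepted. Calls required an adjusted p below 0.05 together with an absolute log2 difference above 1, or, for an interaction, the adjusted p alone. The pseudocount understates changes of low genes. Fits held the 12 E6.5, 16 E9.5 gut (2 origins), 20 E9.5, 12 E13.5 or all 44 libraries.

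The members and all lists were chosen with earlier results of these data known. All members are named. List genes are named where called in exGut against emGut, exEndo1 against Epi, exGut against YsEndo or ex against em intestine, up to 4 a list by size of difference, plus Srebf2 and Insig1, and some genes are not reported here. Msmo1 in the added contrast of origin by stage was named after its value was seen. The 10 most similar genes were ranked by Pearson correlation with the members' mean.

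Same-numbered exEndo1 and exEndo2 libraries deviated together (r = 0.132 to 0.361 in 4 pairs). No other pair of groups examined had r above 0.1 in every pair. The main fits did not pair libraries, and pairing entered only as the replicate block among the alternatives. Alternatives were a pseudocount of 0.1, no filter, median-ratio rescaling, FPKM, a replicate block, a region covariate, the compared groups alone, and leaving out libraries. The procedure was tested on simulated data. Promoter windows came from RefSeq (GRCm38.p6).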

Additional observations from a re-analysis of the deposited data

Results flagged for a closer look

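Of 80 gene and group pairs examined (the 8 members, Srebf2 and Insig1 in the 8 groups of 4 libraries), 8 held a library far from the other 3, and chance alone gives about 1 in 20. Of these, 5 were the lowest of their group. Mvd in emMidgut replicate 3 was 22.1 TPM, against 39.8 to 41.4 in the others. Fdft1 and Sqle in Epi replicate 4 were 31.6 TPM (others 46.5 to 49.4) and 40.1 TPM (others 71.2 to 74.1). Lss in exEndo2 replicate 1 was 5.61 TPM (others 9.60 to 9.75) and Dhcr7 in exEndo1 replicate 1 was 4.06 TPM (others 7.24 to 7.51).

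The other 3 were the highest. Hmgcs1 was 189 TPM in emMidgut replicate 4 (others 120.1 to 130.3) and 49.2 TPM in YsEndo replicate 2 (others 43.9 to 44.8). Idi1 was 112 TPM in Epi replicate 1 (others 71.2 to 75.6).

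The origin difference of Hmgcs1 and Idi1 differed between stages, by 1.12 and 1.34 on the log2 scale (E13.5 minus E9.5, limma, adjusted p = 0.00244 and 0.00513). In the libraries at E9.5 the extraembryonic cells were WT, and at E13.5 they were Trp53 KO, so stage and genotype cannot be told apart. The region sampled, the sort of the embryonic cells and the pooling of embryos also changed with stage.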

How the results depend on the processing

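Over all alternatives, 485 of 518 refits of the 41 called member values kept their call and direction, 33 lost the call and 0 reversed. The replicate block left 6 members called in exEndo1 against Epi, 2 in exGut against emGut and 0 in exEndo1 against exEndo2, and it changed no other count of members called within a stage; it was not run across stages. FPKM lowered the exGut against emGut count from 2 to 1 and that of emGut against Epi from 1 to 0, and raised em intestine against emGut from 0 to 1. Rescaling gave 0 for emGut against Epi, 4 instead of 2 for YsEndo against exEndo2, and 1 instead of 0 for em intestine against emGut. A region covariate gave 3 instead of 2 for exGut against emGut. With libraries left out, the counts ran from 1 to 4 in exGut against emGut, 2 to 4 in exMidgut against emMidgut (4 without emMidgut replicate 3 or exMidgut replicate 1), 0 to 2 in emGut against Epi, 1 to 2 in YsEndo against exEndo2, 0 to 2 in em intestine against emGut, and 1 to 3 in the contrast of origin by stage. The cause was not tested.

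Counts over all genes moved more. They went from 316 to 587 in exGut against emGut with a region covariate, from 691 to 321 in exMidgut against emMidgut with the compared groups alone, and from 41 to between 1 and 77 for the interaction of origin and region. At E13.5 they went from 93 to 56 in ex against em (without emSI replicate 1), from 77 to between 30 and 51 in colon, from 63 to between 33 and 38 in small intestine, from 91 to between 25 and 53 in emColon against emSI, from 107 to between 25 and 70 in exColon against exSI, and from 2 to between 0 and 14 for the interaction. FPKM lowered em intestine against emGut from 3476 to 2251, and leaving out replicate 4 lowered origin by stage from 566 to 221. Rescaling moved the share of calls that were higher from 76.2% to 58.6% in exGut against YsEndo, 76.6% to 59.7% in emGut against YsEndo, 80.5% to 68.7% in exColon against emColon, 27.1% to 56.6% in YsEndo against exEndo2, 15.5% to 25.6% in em intestine against emGut and 71.7% to 60.5% in origin by stage. Coverage limits Lss and Dhcr7 most, and the 3 libraries per group limit E13.5.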
